A study of Arabidopsis thaliana with 6 samples.

Results

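EXORDIUM (EXO) and its EXORDIUM-like (EXL) relatives are a family of 8 Arabidopsis thaliana genes for secreted proteins with a phosphate-induced protein domain. The family was listed by locus as EXO (AT4G08950), EXL1 (AT1G35140), EXL2 (AT5G64260), EXL3 (AT5G51550), EXL4 (AT5G09440), EXL5 (AT2G17230), EXL6 (AT3G02970) and EXL7 (AT2G35150). It was taken up because EXO had one of the largest decreases under water deficit in these same arrays, so the levels and changes of the members are described here without a test. A probe set was paired with 3 of the 8 genes, among 13912 loci so paired on the array. EXO was paired by the platform annotation, and EXL1 and EXL4 by the probe set column of the study's supplementary table. EXL2, EXL3, EXL5, EXL6 and EXL7 were not analysed here. The pairing sources named no probe set for them, which does not show that the array lacks one. The gene table used for names calls AT1G35140 PHI-1, the name of its tobacco relative, and lists both EXL1 and EXL7 as synonyms, so the locus is decisive for this gene.

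EXO is known as a brassinosteroid-induced protein of the cell wall space. Brassinosteroids are plant steroid hormones that are perceived at the cell surface and act through transcription factors of the BZR1 and BES1 family to promote cell expansion, and loss of EXO reduces leaf and root growth. EXL1 is known from growth under low carbon and energy supply, and less is known of EXL4.

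Vegetative rosettes of wild-type Col-0 plants were compared between a watered group and a water deficit group. All plants were soil-grown and 4 weeks old at the start. In the water deficit group the soil was left to dry, and rosettes were taken at 65% relative water content. RNA of each group was hybridized to 3 Affymetrix ATH1 arrays, 1 for each replicate, and the number of plants behind a replicate was not given in the sources used here.

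The arrays were unequally bright, and replicate 1 was the dimmest of each group. Before scaling the median signal was 12.6, 38.2 and 29.6 in watered replicates 1, 2 and 3. It was 18.9, 51.6 and 45.6 in water deficit replicates 1, 2 and 3, brighter at each number. The signals were therefore brought to a common distribution, raised to a detection floor of 4.21 on the log2 scale and compared on that scale. This scaling also takes out the difference in brightness between the groups, whose source was not tested. Of 13703 probe sets above the floor on at least 3 arrays, 3154 were lower and 2992 higher under water deficit (limma adjusted p under 0.05), so that 48.7% of the calls were higher, against 71.9% after spike-in scaling and 73.6% on unscaled values. The 3 paired green leaf markers, the Calvin cycle genes RCA, PRK and SBPASE, had log2 signals from 9.38 to 13.20 on the 6 arrays, and all 3 fell, with calls that were lost after spike-in scaling and on unscaled values. RCA had a log2 fold change of -0.82, and its call was lost when any of 4 arrays was left out (adjusted p from 0.0705 to 0.0844 without watered replicate 1 or 2 or water deficit replicate 2 or 3), with the floor at the 25th percentile (0.0621) and with no filter (0.111). The flower marker PI exceeded the floor on 2 of the 6 arrays and the root hair expansin EXPA7 on none, while the root marker PYK10 was present on all, with log2 signals from 7.97 to 10.25. The log2 fold change of PYK10 was 0.59 ± 0.51 (SE, limma adjusted p = 0.369), with an adjusted p of 0.0316 when the replicate number was a block. Its part in the changes below was not tested. The ratio of 3′ to 5′ actin control signal was 1.93, 2.02 and 3.50 in the watered group and between 1.74 and 1.78 in the water deficit group, and its part in the results was not tested.

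EXO and EXL1 transcripts were abundant in watered rosettes and close to the detection limit under water deficit, while EXL4 transcripts were lower by a smaller amount. In watered rosettes the log2 signal of EXO was 11.95, 11.95 and 10.44 in replicates 1, 2 and 3. Under water deficit it was 5.36, 5.23 and 4.90. The lowest watered array thus lay far above the highest water deficit array, and all 6 values were above the floor. The mean was 11.45 ± 0.87 in watered and 5.16 ± 0.24 in water deficit rosettes (SD, n = 3 each), a log2 fold change of -6.29 ± 0.40 (SE), or 78.0-fold lower. In linear units of normalized signal, EXO went from 3964, 3953 and 1393 to 41.0, 37.6 and 29.8. RNA came from whole rosettes, so fewer cells expressing a gene and less transcript per cell cannot be told apart.

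EXL1 had log2 signals of 11.67, 11.86 and 10.21 in watered replicates 1, 2 and 3. They were 5.24, 4.89 and 4.21 under water deficit. As for EXO, the groups were far apart. The last of these values is the floor itself, so EXL1 was detected on 2 of the 3 water deficit arrays. Its log2 fold change was -6.47 ± 0.46 (SE, n = 3 per group), which is at least 88.5-fold lower because the floor replaced a lower signal. With the floor set at the 25th percentile of all values, which is lower, the log2 fold change was -6.76.

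EXL4 had log2 signals of 8.93, 8.98 and 9.10 in watered rosettes and of 7.60, 7.50 and 8.11 under water deficit. The groups did not overlap, but the gap between them was small. The mean changed from 9.0 ± 0.09 to 7.74 ± 0.33 (SD, n = 3 each), a log2 fold change of -1.27 ± 0.21 (SE), or 2.41-fold lower. EXL4 depended on the scaling: its log2 fold change was -0.80 after spike-in scaling and -0.75 on unscaled values. Relative to the median of all tested probe sets, which moved from 0.04 to 0.48 and 0.51 under these scalings, EXL4 was at -1.28 and -1.26.

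**Figure D1:**
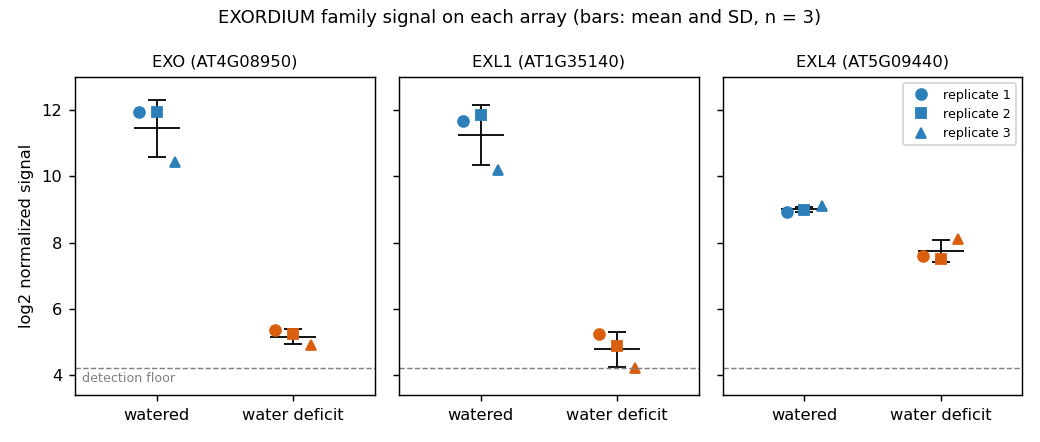
Log2 normalized signal of EXO, EXL1 and EXL4 on each watered and water deficit array, with symbols for replicates 1 to 3, bars for the mean and SD of 3 arrays and a dashed line at the detection floor of 4.21. EXO and EXL1 lie between 10.21 and 11.95 in watered rosettes and at or under 5.36 under water deficit, whereas EXL4 goes from a mean of 9.0 to 7.74.

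In each of the 3 paired members the water deficit arrays lay wholly below the watered arrays, as they did for 28.0% of all tested probe sets. EXO and EXL1, 2 of the 3, were at least 32-fold lower, a size reached by 18 of the 13703 probe sets (0.131%). The choice of the family rests on this contrast, and nothing is read from these shares. By the size of the decrease at this floor EXL1 was at rank 2, EXO at rank 3 and EXL4 at rank 1494 of the 13703 probe sets, and the probe set at rank 1 was paired with no gene. These ranks depend on the floor, which cuts the decrease of dim transcripts: with the floor at the 25th percentile the expansin gene EXPA8 was at -6.79, EXL1 at -6.76 and EXO at -6.29. The order of EXO and EXL1 between themselves is within their standard errors, and both log2 fold changes kept their size in the other settings run, between -6.79 and -6.0 for EXO and between -6.99 and -6.16 for EXL1.

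**Figure D2:**
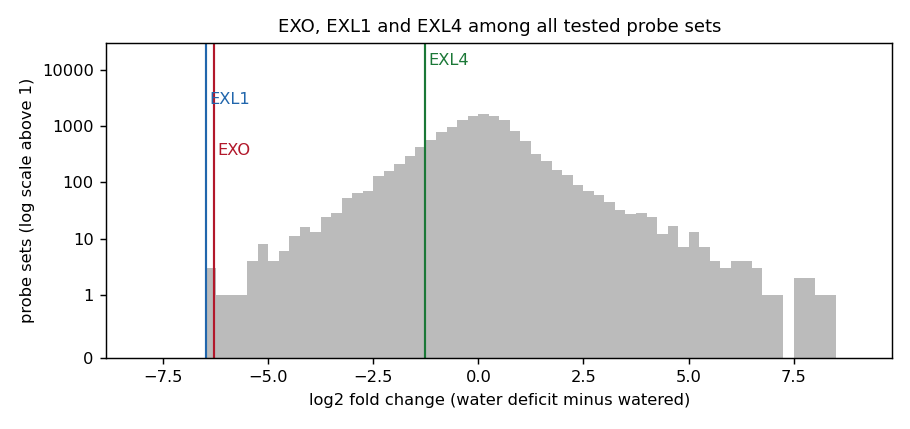
Number of tested probe sets (log scale above 1) by log2 fold change, water deficit minus watered, in bins of 0.25, with lines at EXL1 (-6.47), EXO (-6.29) and EXL4 (-1.27). EXL1 and EXO stand at the far left edge of the 13703 probe sets and EXL4 within the left flank.

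The watered replicates were not alike for EXO and EXL1. The choice of the family did not use this spread, but it did use the mean of the same watered values. The spread is described here without a test. On watered replicate 3 the deviation from the watered mean was -1.0 log2 units for EXO and -1.04 for EXL1. On watered replicates 1 and 2 it was 0.50 and 0.50 for EXO and 0.42 and 0.61 for EXL1. Both transcripts were therefore lowest on the same watered array, which was 2.84-fold below the next array for EXO and 2.76-fold below it for EXL1. EXL4 did not share this, with deviations of -0.07, -0.02 and 0.09 on watered replicates 1, 2 and 3. The watered SD of EXO (0.87) was larger than that of 97.9% of the 191 tested probe sets with a watered mean within 0.5 log2 units of its own, whose median SD was 0.17. For EXL1 (0.90) the share was 97.6% of 246 probe sets. For EXL4 (0.09) 11.7% of 1222 such probe sets had a smaller SD. Of all tested probe sets 181 (1.32%) were at least 2-fold lower on watered replicate 3 than on both other watered arrays, and 394 were so on watered replicate 1. Tissue markers also differed on watered replicate 3. PYK10 was highest there (7.97, 8.68 and 9.75 in watered replicates 1, 2 and 3). RCA, PRK and SBPASE were each lowest there (SBPASE 11.94, 11.51 and 11.18). The part of tissue make-up in this spread was not tested.

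The low value of watered replicate 3 did not depend on the scaling. In the deposited signals EXO was at 2283, 5074 and 1293 in watered replicates 1, 2 and 3, so that replicate 3 was the lowest although replicate 1 was the dimmest array. EXO on watered replicate 1 was 1.77-fold above replicate 3 with no scaling, 2.06-fold with spike-in scaling and 4.13-fold with median scaling. For EXL1 the same ratios were 1.61, 1.87 and 3.76. Without watered replicate 3 the log2 fold changes were -6.79 for EXO and -6.99 for EXL1.

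Under water deficit EXO and EXL1 were lowest on replicate 3 and highest on replicate 1, and EXL4 was highest on replicate 3. For EXO and EXL1 this order depended on the scaling. On unscaled values EXO was at 23.4, 59.9 and 41.0 and EXL1 at 21.7, 46.5 and 12.6 in water deficit replicates 1, 2 and 3, so that EXO was lowest on replicate 1 and both were highest on replicate 2. Arrays of the same number in the 2 groups deviated together in a correlation check and were taken as pairs here. Between arrays of the same number EXO was 96.6-fold, 105-fold and 46.8-fold lower under water deficit in replicates 1, 2 and 3. EXL1 was 86.1-fold, 126-fold and at least 64.0-fold lower. EXL4 was 2.52-fold, 2.80-fold and 1.98-fold lower. For EXO and EXL4 the pair numbered 3 gave the smallest of these folds, and the value for EXL1 in that pair is a bound and was not ranked.

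Over the 6 arrays the expression profiles of EXO and EXL1 lay near each other and that of EXL4 farther off. This placing largely restates the sizes of their decreases. Among 7582 other genes with 1 probe set each, the one whose centred log2 profile was nearest to that of EXO was EXL1, with a root mean square difference of 0.20 log2 units, and the nearest to EXL1 was EXO. The next for both were AT5G44020, an acid phosphatase family gene (0.50 from EXO and 0.57 from EXL1), and HAT1 (AT4G17460), a homeodomain-leucine zipper transcription factor (0.55 and 0.69). AT5G44020 had log2 signals of 11.18, 11.17 and 10.70 in watered rosettes and of 5.88, 5.0 and 5.03 under water deficit. HAT1 had log2 signals of 9.72, 9.89 and 9.0 in watered rosettes, and every water deficit array was at the floor, so that HAT1 was at least 40.2-fold lower. Both were also lowest on watered replicate 3. These genes were chosen by likeness over 6 arrays in 2 groups, so their likeness follows in large part from the size of the change.

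EXL4 was 853rd in likeness to EXO and 879th in likeness to EXL1, at root mean square differences of 2.59 and 2.70. These ranks and distances follow in large part from its smaller decrease. EXL4 had Pearson correlations of 0.92 with EXO and 0.90 with EXL1 over the 6 arrays. Its own nearest genes were AT5G01090 (0.09), AT2G26730 (0.11) and AT3G11500 (0.12), with log2 fold changes of -1.21, -1.13 and -1.24. Differences of this size are small against the SD of EXL4 under water deficit, and all 3, like EXL4, were highest on replicate 3 among the water deficit arrays. The 3 genes were chosen by likeness to EXL4 over these arrays, so the shared order follows in large part from the choice. Probe sequences were not used here, so cross-hybridization between transcripts of the relatives was not tested. The names of all 3 probe sets carry the plain _at ending, which the array design gives to probe sets meant for a single transcript. This ending records the aim of the design and is no measure of specificity.

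**Figure D3:**
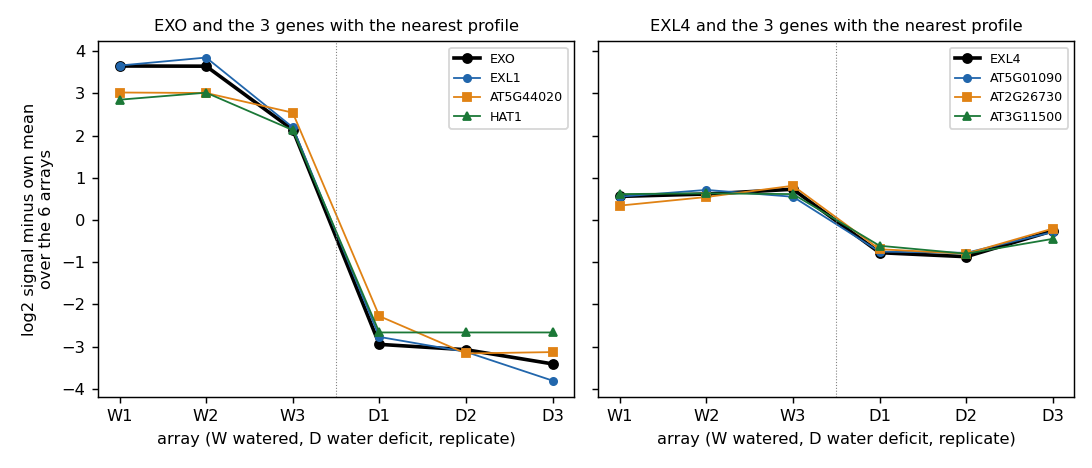
Log2 signal minus the gene's own mean over the 6 arrays, for EXO (left) and EXL4 (right) and the 3 genes nearest to each, on watered (W) and water deficit (D) arrays 1 to 3. EXL1 follows EXO on every array, including the lower value on W3, while EXL4 and its nearest genes stay within about 1 log2 unit of their mean.

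Few of the listed genes around the hormone pathway of EXO were measured, and those called went in different directions. Of 13 listed genes for brassinosteroid synthesis and inactivation 1 had a probe set and was measured. ROT3 (AT4G36380), a cytochrome P450 of brassinosteroid synthesis, had log2 signals of 4.21, 4.31 and 4.67 in watered rosettes and of 6.61, 6.57 and 6.65 under water deficit. It rose by at least 4.65-fold (log2 fold change 2.22 ± 0.19, SE, n = 3 per group, limma adjusted p = 8.35e-05), and was above the floor on 2 of the 3 watered arrays. Across all tested probe sets 44.9% were called in either direction and the median log2 fold change was 0.04.

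Of 17 listed brassinosteroid signalling genes 3 were paired and 2 measured, with 1 lower and 1 not called. The receptor-like kinase gene BRL1 was at the floor on all 6 arrays. BEH2, a relative of the transcription factors BZR1 and BES1, had log2 signals of 6.73, 7.01 and 6.84 in watered and of 6.09, 6.22 and 6.28 in water deficit rosettes. It fell 1.58-fold (limma adjusted p = 0.0154), and the call was lost after spike-in scaling (log2 fold change -0.12), on unscaled values (-0.07) and without watered replicate 2 (-0.59, adjusted p = 0.064). For BIM1, a partner of BES1, the log2 fold change was 0.22 ± 0.18 (SE, limma adjusted p = 0.349).

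Of 17 listed growth genes that brassinosteroids induce, 2 were measured and both were called lower. Of all 13703 tested probe sets 3154 were called lower. BEE2, a bHLH transcription factor of the brassinosteroid response, had log2 signals of 7.70, 7.53 and 8.23 in watered and of 4.88, 4.65 and 4.21 in water deficit rosettes. It was detected on 2 of the 3 water deficit arrays and fell by at least 9.44-fold (limma adjusted p = 6.93e-05). The expansin gene EXPA8, for a wall-loosening protein, reached the floor in every water deficit replicate (limma adjusted p = 1.57e-05). Its log2 signals in watered rosettes were 8.85, 9.06 and 9.97. BEE2 and EXPA8 were highest on watered replicate 3, the array on which EXO and EXL1 were lowest. EXPA8 passed the filter through the watered arrays alone and could only fall, so nothing is read from the count of genes called lower.

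Carbon starvation genes were examined because of the known role of EXL1 under low carbon supply. Of 14 listed genes 3 were measured, with 1 higher, 1 lower and 1 not called, and a median log2 fold change of -0.06. Over all tested probe sets 44.9% were called in either direction and the median was 0.04. DRM1, a dormancy-associated gene induced when sugar is short, had log2 signals of 6.12, 7.50 and 9.29 in watered replicates 1, 2 and 3 and of 10.12, 9.97 and 10.59 under water deficit. It rose 6.04-fold (limma adjusted p = 0.0165). The call on DRM1 was lost without watered replicate 2 (adjusted p = 0.0582) or water deficit replicate 1 (0.0553) or 3 (0.068), and the log2 fold change, 2.60 over all arrays, became 3.42 when watered replicate 3 was left out and 1.84 when watered replicate 1 was. DIN10, a raffinose synthase family gene induced in the dark, went the other way. It had log2 signals of 10.55, 11.23 and 9.64 in watered and of 8.25, 8.50 and 7.35 in water deficit rosettes and fell 5.43-fold (limma adjusted p = 0.00314). On watered replicate 3, the array with the lowest EXO and EXL1, DIN10 was also lowest and DRM1 highest of the watered arrays. For BZIP53, a transcription factor of the low-energy response, the log2 fold change was -0.06 ± 0.16 (SE, limma adjusted p = 0.801).

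Markers of dividing cells, which mark young growing leaves, were near the floor. Of 9 listed 3 were measured, with 2 lower and 1 not called, and a median log2 fold change of -1.03. Over all tested probe sets 44.9% were called in either direction and the median was 0.04. With values this near the floor, nothing is read from the count or the median. The replicative helicase subunit gene MCM7 had log2 signals of 5.99, 5.66 and 5.87 in watered rosettes and reached the floor in every water deficit replicate, at least 3.10-fold lower (limma adjusted p = 0.000227), and could only fall. The mitotic kinase gene AUR1 was above the floor on 3 watered and 1 water deficit array and fell by at least 2.04-fold (limma adjusted p = 0.00251). For its relative AUR2 the log2 fold change was 0.45 ± 0.20 (SE, limma adjusted p = 0.103). The calls on AUR1 (after spike-in scaling and on unscaled values) and MCM7 (on unscaled values) were lost. The part of dividing cells in the changes of EXO and EXL1 was not tested.

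**Figure D4:**
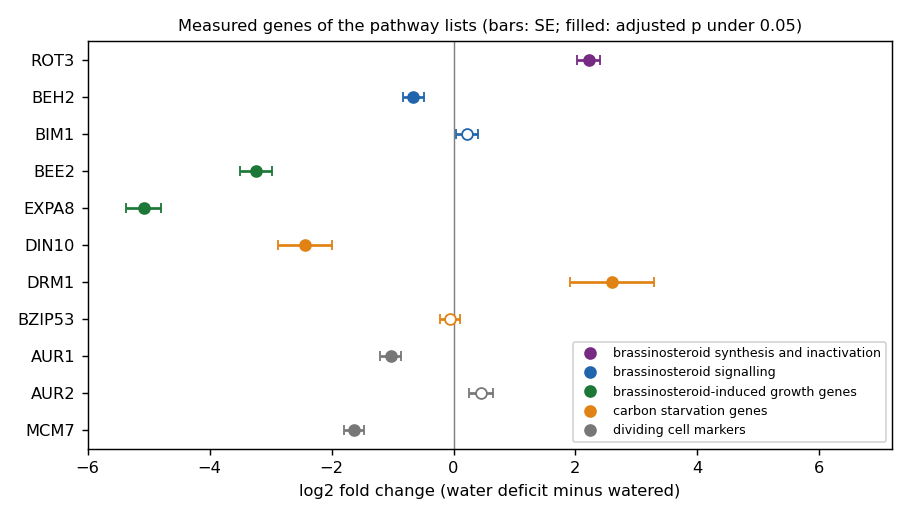
Log2 fold change with its SE (water deficit minus watered, 3 arrays each) for the 11 measured genes of the 5 pathway lists, filled where the limma adjusted p was under 0.05. EXPA8 (-5.08) and BEE2 (-3.24) lie farthest to the left, and DRM1 (2.60) and ROT3 (2.22) farthest to the right.

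The 8 family genes are spread over all 5 chromosomes, with 3 on chromosome 5, 2 on chromosome 2 and 1 on each of the others. The genes next to EXO on either side are annotated pseudogenes, as are those next to EXL1. The pseudogene AT1G35143, which follows EXL1, had a probe set of its own and was at the floor on all 6 arrays, where EXL1 went from a mean log2 signal of 11.25 to 4.78. AT5G09430, next to EXL4, was also at the floor throughout. Of the 16 adjacent genes 8 had a probe set and 6 of them were measured, 2 of them higher and 2 lower, against 44.9% called in either direction over all tested probe sets. All 6 lie beside EXL2, EXL3, EXL5 or EXL7, which were not analysed here, so none could be compared with its family neighbour.

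Both neighbours of EXL2 rose, AT5G64250 with a log2 fold change of 0.99 ± 0.20 (SE, limma adjusted p = 0.00556) and AT5G64270, a splicing factor gene, with one of 0.83 ± 0.19 (0.00953). Both neighbours of EXL3 fell. For LPA2 (AT5G51545), known from photosystem II assembly, the log2 fold change was -1.85 ± 0.16 (limma adjusted p = 0.000104). For AT5G51560, a receptor-like kinase gene, it was -2.26 ± 0.28 (0.000472). AT2G17240 beside EXL5 and AT2G35155 beside EXL7 had log2 fold changes of -0.71 ± 0.26 and -0.65 ± 0.24 (limma adjusted p = 0.0544 and 0.0541). With the replicate number as a block the fold changes were the same and both genes were called lower (limma adjusted p = 0.025 and 0.0372). AT2G17240 also passed without watered replicate 3 (adjusted p = 0.0264). AT2G35155 also passed without water deficit replicate 1 (0.018) and over the 4 brighter arrays (0.0269). The calls on the neighbours of EXL2 and on LPA2 were lost after spike-in scaling, and on unscaled values the calls on all 4 neighbours were lost.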

How the data were processed

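Total RNA of 3 watered and 3 water deficit replicates was hybridized to Affymetrix ATH1 arrays. The authors obtained signals for each probe set from the Affymetrix GeneChip software. Their comparison in Rosetta Resolver corrected the background, normalized the signals and applied an error model for ratios. The deposited values are linear intensity per array, partly below 0 and not scaled between arrays. No coordinates are printed, since the files' genome build was not given in the sources used here.

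Intensities of 22810 probe sets (64 controls) were quantile normalized over the 6 arrays, raised to a floor (18.5 units, the highest value of 27 Bacillus control probe sets on any array) and converted to log2. Probe sets above the floor on at least 3 arrays (60.2%) were compared with limma 3.58.1 in R 4.3.3 (two-sided, group as the only term, Benjamini-Hochberg adjustment), which replaced the study's proprietary ratio model. The script was tested on simulated data. Where a group was at the floor on any array, folds are lower bounds. The number of arrays limits the precision.

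The platform annotation paired 13513 probe sets with 1 gene and 503 with several. The study's supplementary table added 630, and 8100 had none. For 1024 of 1037 probe sets in both tables the locus was the same. Neighbouring genes came from an NCBI gene table (assembly TAIR10.1).

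The rule for named genes took all members, called list genes (at most 6 a list) and others where at most 4 were not called, measured neighbours, and the 3 genes nearest to each member in centred log2 profile. Members and lists were chosen with earlier results of these data known. The listed dehydration-induced genes had no paired probe set and were not analysed here. This is a limit of the pairing sources, since the study reported dehydration-induced genes such as RD29A and RD29B from its arrays. Same-numbered arrays deviated together from their group means (correlations 0.291, 0.23 and 0.393 for replicates 1, 2 and 3). The numbers in the titles were therefore taken to pair them in the block setting and in the folds by number. The main fit did not use this pairing, and the source of the correlation was not tested. Alternatives were other scalings, another floor, no filter, the replicate block, single arrays left out and the 4 brighter arrays.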

Additional observations from a re-analysis of the deposited data

How the results depend on the processing

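The log2 fold changes of EXO and EXL1 moved by less than 1 replicate SD in all 14 settings, the main one included. That of EXL4 did so in 12 of 14. The SD was each gene's own and was smallest for EXL4, so these limits were unlike. Over the settings the log2 fold change ran from -6.79 to -6.0 for EXO and from -6.99 to -6.16 for EXL1. For EXL4 it ran from -1.46 to -0.75. With the replicate block the fold changes of the 3 members were the same by construction (-6.29, -6.47 and -1.27). Beyond PYK10, AT2G17240 and AT2G35155, the block changed no other call on the measured list genes, markers and neighbours. After spike-in scaling and on unscaled values the numbers of probe sets lower were 525 and 370 and of those higher 1344 and 1030, EXL4 was at -0.80 and -0.75, the signalling genes lower 0 and 0, the dividing cell markers lower 1 and 0, and the neighbours called 1 and 0. The carbon starvation genes higher (DRM1) were 0 with no filter (limma adjusted p = 0.139) and 0 over the 4 brighter arrays (0.0634). With single arrays left out, the signalling genes lower, the carbon starvation genes higher and the dividing cell markers higher each ranged from 0 to 1. The last of these was AUR2 without watered replicate 1 (adjusted p = 0.0389). The causes of these differences were not tested. No members had more than 1 probe set, so that alternative was not run, and sequences were not compared. Values near the floor, as for EXL1 under water deficit, limit the folds.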
